A study of Mus musculus with 8 samples.

Results

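The melanin pathway genes were examined in retinas of aged mice. They were 9 genes, of 22911 genes named on the array: Tyr, Tyrp1, Dct, Pmel, Mlana, Slc45a2, Oca2, Mitf and Best1. Their probes were found by matching the accession that the array gives for each probe to a RefSeq gene table, without use of any measured level. They had 14 of the 56605 probes, and 7 of the 9 genes had at least 1 probe bright enough to be compared between genotypes. The study asked how loss of MRP4, an efflux transporter encoded by Abcc4, alters gene expression in the aging retina. Whole retina was taken from homozygous Mrp4 knockout mice on a C57BL/6J background and from wild-type mice whose strain was not stated separately, all given as 46 to 55 weeks old. Each genotype had 4 samples, each hybridized to 1 one-color array. According to the methods, tissue came from 3 mice, and it is unclear if samples were pools, so p-values measure only the spread between these samples.

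All samples were run on 1 slide, where the genotypes occupied separate rows, and row and genotype cannot be told apart. Between 66.0% and 69.9% of probes per array were well above background, and the number of arrays limits the precision. Before normalization, the 75th percentile of signal was 678 on array 2 labelled Mrp4-null, 706 and 781 on wild-type arrays 3 and 4, and 970 to 1082 on the others. Abcc4 had a normalized log2 signal of 6.83 ± 0.29 (SD, n = 4) on wild-type arrays and a higher one, 10.75 ± 0.09 (SD, n = 4), on those labelled Mrp4-null (limma, adjusted p = 1.36e-05). A knockout would be expected to have less, but where this probe lies relative to the deleted part of the gene was not examined here, and a probe outside that part would not check the label. Every direction below follows the labels as deposited. Sex also differed: Xist was well above background on 4 arrays labelled Mrp4-null and 2 wild-type arrays, and the Y-linked Ddx3y on 0 and 3. With 4 wild-type arrays these counts overlap, so some wild-type array had both. Whether samples mixed mice of both sexes was not tested, nor was the part of sex in the results. All 21 neural retina markers had a retained probe, as did 30 of the 31 pigment epithelium markers on the array.

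Melanin is made in melanosomes, organelles of the retinal pigment epithelium and of the melanocytes of the choroid, iris and skin. Tyrosinase (Tyr) starts the pathway from tyrosine, Dct and Tyrp1 act on later intermediates, Pmel forms the fibrils on which pigment is laid down, and Mitf is the transcription factor that binds E-box and M-box sequences near several of these genes. The neural retina makes no melanin. The arrays do not show which cells of the whole retina gave the signal of each gene. In such bulk samples, fewer pigment cells and less RNA per pigment cell cannot be told apart.

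The 250 bases upstream of the start of the 3 enzyme genes are shown because these genes share the M-box letters and 2 of them, Tyrp1 and Dct, varied together across the arrays. They are from RefSeq, build GRCm38.p6. Capitals mark CATGTG or its reverse complement CACATG. Tyr lies on the minus strand at chr7:87493513-87493762, Tyrp1 on the plus strand at chr4:80833963-80834212 and Dct on the minus strand at chr14:118052247-118052496.
Tyr: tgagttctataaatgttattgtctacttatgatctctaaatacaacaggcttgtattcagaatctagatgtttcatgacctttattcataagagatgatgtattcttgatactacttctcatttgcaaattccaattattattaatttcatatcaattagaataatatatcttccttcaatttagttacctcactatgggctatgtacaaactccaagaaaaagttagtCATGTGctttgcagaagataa
Tyrp1: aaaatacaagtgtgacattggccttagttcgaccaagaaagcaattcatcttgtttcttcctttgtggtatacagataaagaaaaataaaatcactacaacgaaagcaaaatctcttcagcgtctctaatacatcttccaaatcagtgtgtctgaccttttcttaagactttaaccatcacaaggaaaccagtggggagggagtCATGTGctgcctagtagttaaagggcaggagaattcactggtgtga
Dct: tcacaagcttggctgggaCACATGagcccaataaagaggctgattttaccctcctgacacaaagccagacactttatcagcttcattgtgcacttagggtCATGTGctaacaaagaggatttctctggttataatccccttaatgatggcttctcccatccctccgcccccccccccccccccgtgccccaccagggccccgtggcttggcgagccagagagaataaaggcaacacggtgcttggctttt

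The longer M-box letters TCATGTG, searched on both strands with the reverse complement CACATGA, stood in all 3 windows. They began 22 bases before the start of Tyr and 47 bases before that of Tyrp1. Dct held 2 copies, 151 and 232 bases before its start, the latter as CACATGA. The same letters were in none of the other member windows and in 3.25% of 32851 RefSeq windows of this length. Because the 3 windows were shown for these letters, that share is background and not a test. The shorter CATGTG, which lies inside TCATGTG, was also found in the Oca2 window, 186 bases before the start, and in 12.3% of all windows. Another E-box, CACGTG, was in none of the 8 member windows and in 6.02% of all windows. The 3 Mitf windows and the Best1 window held none of these letters. No upstream window was available for Pmel, Mlana and Slc45a2, so none was searched. These matches describe letters and not binding.

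None of the melanin pathway genes was called changed between the genotypes. A call required a fold change of 1.5 or more and a limma p under 0.05 after Benjamini-Hochberg adjustment over the 37085 retained probes. That held for 202 probes of the whole array, 0.545% (0.256% higher and 0.289% lower on arrays labelled Mrp4-null), and for 0 of the 10 retained member probes. No member probe had an unadjusted limma p under 0.05, against 6.46% of all retained probes, and a local pooled error test, written here after the one in the methods and with the same adjustment, called 0 members and 0.628% of all probes. The fold change of 1.5 alone was reached by 0 member probes and by 1.88% of all probes. Full separation of the genotypes, with no overlap between their arrays, was seen in 4.79% of retained probes and in 0 of the member probes. With 1 probe per gene, the one of highest mean signal, 6 of 7 members had a higher mean on arrays labelled Mrp4-null, Mitf by only 0.0077, and the median log2 fold change was 0.20. The median was 0.067 without array 2 labelled Mrp4-null, 0.077 without wild-type array 3 and 0.11 without wild-type array 4, and it was 0.096 with normexp background correction. Without both array 2 labelled Mrp4-null and wild-type array 3, a setting chosen after seeing the data, the median was -0.089 and Tyrp1, Dct and Mlana had a lower mean on arrays labelled Mrp4-null. Over all 16093 genes treated the same way, 46.3% were higher and the median was -0.01.

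**Figure D1:**
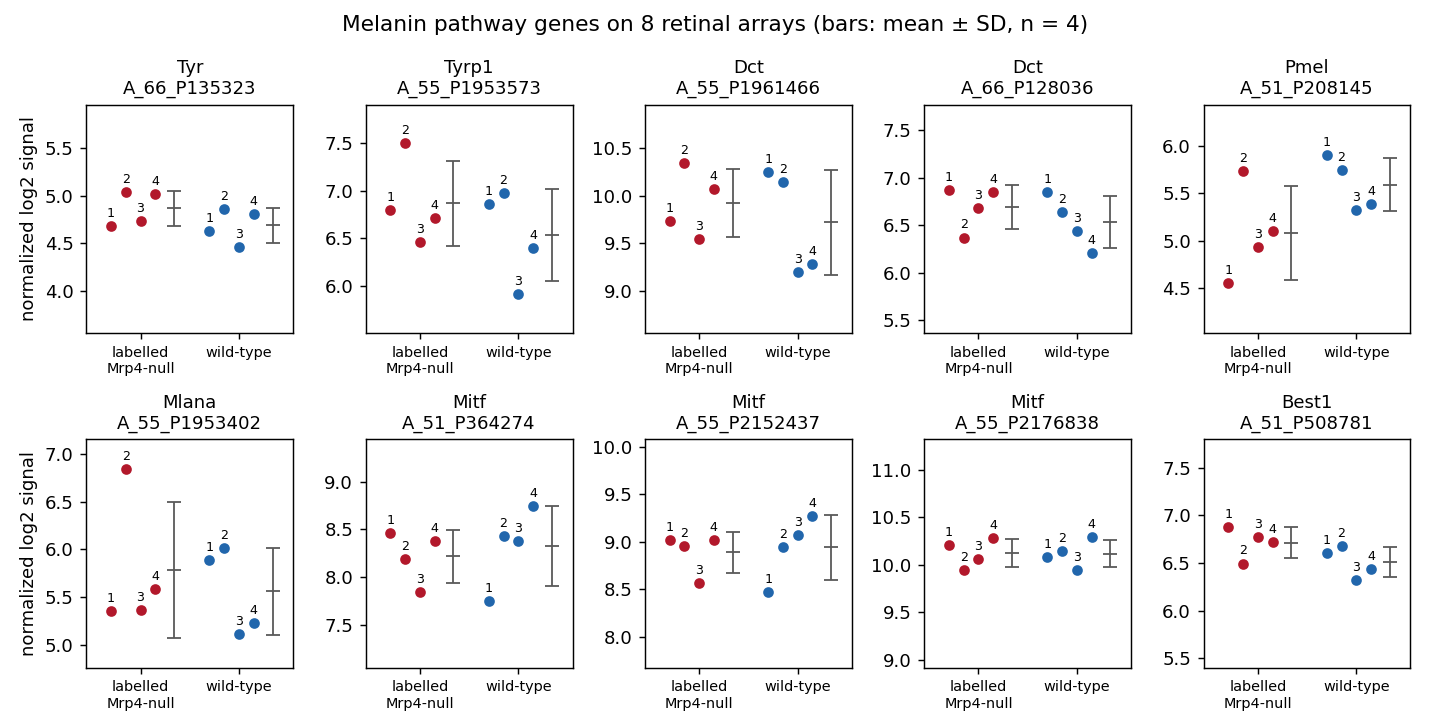
Normalized log2 signal of the 10 retained probes of melanin pathway genes on each array (points, with the sample number; red, labelled Mrp4-null; blue, wild-type), with the mean ± SD of 4 arrays beside them. Every vertical axis spans the same log2 range, and the genotypes overlap in every panel.

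Tyrosinase catalyses the first and rate-limiting step of melanin synthesis. Its retained probe, A_66_P135323, had normalized log2 signals of 4.68, 5.04, 4.74 and 5.01 on arrays 1 to 4 labelled Mrp4-null. On wild-type arrays 1 to 4 the values were 4.63, 4.86, 4.46 and 4.80. The genotypes overlapped, with array 2 labelled Mrp4-null highest and wild-type array 3 lowest. The log2 fold change was 0.18 (95% interval -0.11 to 0.47; p = 0.229 by a two-sided exact permutation test, whose smallest possible p here is 0.0286). Across the alternative settings the log2 fold change lay between 0.044 (normexp background correction) and 0.27 (a shift to the 75th percentile). The other Tyr probe, A_51_P102311, was well above background on 0 of 8 arrays.

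Tyrp1, which oxidizes a late melanin intermediate in the mouse, had log2 signals of 6.79, 7.50, 6.46 and 6.71 on arrays labelled Mrp4-null. The wild-type arrays gave 6.86, 6.97, 5.91 and 6.40. Array 2 labelled Mrp4-null was again highest and wild-type array 3 again lowest, a span of more than 1 log2 unit across both genotypes. Its log2 fold change was 0.33 (95% interval -0.31 to 0.97; exact permutation test, p = 0.429).

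Dct, dopachrome tautomerase, acts between the steps catalysed by Tyr and Tyrp1. Its brighter probe, A_55_P1961466, read 9.74, 10.35, 9.55 and 10.07 on arrays labelled Mrp4-null and 10.25, 10.14, 9.20 and 9.28 on wild-type arrays. The wild-type samples fell apart into a high pair, arrays 1 and 2, and a low pair, arrays 3 and 4, which lay on either side of arrays 1, 3 and 4 labelled Mrp4-null. This probe had a log2 fold change of 0.20 (95% interval -0.44 to 0.85; exact permutation test, p = 0.543). With 1 array left out, that value lay between 0.033 (without wild-type array 3) and 0.38 (without wild-type array 1). The other Dct probe, A_66_P128036, read 6.87, 6.37, 6.68 and 6.85 against 6.85, 6.64, 6.44 and 6.21. Its difference was of similar size (log2 fold change 0.16; exact permutation test, p = 0.429), but on array 2 labelled Mrp4-null, where the brighter probe was highest, it was among the lowest. The correlation of the 2 probes across the 8 arrays was 0.419 (Spearman's rho 0.167), given here as a description.

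Dct lies on chromosome 14 close to Abcc4, the targeted gene, with 16 entries of the gene table between them. Of the 4 protein-coding genes among these entries, 3 had a retained probe. Tgds, a predicted sugar nucleotide dehydratase, had a log2 fold change of 1.74 by 1 probe (standard error 0.36, limma adjusted p = 0.123) and -0.12 by another, so its probes disagreed. Gpr180 differed by 0.15 and Sox21 by -0.0049. Limma called none of them, and it called Abcc4 itself (log2 fold change 3.92). The local pooled error test written for this work, with Benjamini-Hochberg adjustment, did call the higher Tgds probe (adjusted p = 8.2e-12), and neither Dct probe.

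Pmel, by its 1 retained probe, had a lower mean on arrays labelled Mrp4-null, as did 2 of the 3 Mitf probes below. Its probe read 4.56, 5.74, 4.94 and 5.10 on those arrays and 5.90, 5.75, 5.32 and 5.39 on wild-type arrays. Arrays 1, 3 and 4 labelled Mrp4-null lay below every wild-type array, and array 2 lay among them. The log2 difference was -0.51 (95% interval -1.06 to 0.05; limma adjusted p = 0.843), and the exact permutation test gave p = 0.114. It was -0.16 with normexp background correction.

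Mlana, a melanosome protein that binds Pmel, showed the widest spread. It read 5.35, 6.84, 5.36 and 5.58 on arrays labelled Mrp4-null and 5.89, 6.01, 5.11 and 5.23 on wild-type arrays. Array 2 labelled Mrp4-null stood above all others, while the other 3 arrays of that label lay within the wild-type range. The log2 fold change was 0.23 (95% interval -0.59 to 1.04; exact permutation test, p = 0.714) and became -0.13 without that array.

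Slc45a2 and Oca2, membrane proteins that affect the conditions inside the melanosome, were at the limit of detection. Slc45a2 was well above background on 1 array labelled Mrp4-null and on 0 wild-type arrays. Its processed signal was 2.89 to 16.2 and 2.60 to 8.65, where the lowest signal counted as well above background was 11.5 to 13.8 depending on the array. Oca2, the gene of the melanosomal P protein, was well above background on 3 and 2 arrays by A_51_P162144 and on 2 and 1 by A_66_P118598. These 3 probes and the dim Tyr probe were not retained, and no fold change is given for them.

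Mitf was measured by 3 retained probes. The brightest, A_55_P2176838, read 10.21, 9.94, 10.06 and 10.28 on arrays labelled Mrp4-null and 10.08, 10.14, 9.94 and 10.29 on wild-type arrays, so the groups covered nearly the same range. The log2 fold change was 0.0077 (95% interval -0.24 to 0.25), and it was -0.10 for A_51_P364274 and -0.05 for A_55_P2152437. These other probes followed each other (r = 0.970 over 8 arrays, a description) but followed the brightest less closely (0.506 and 0.351). By the accessions on the array, A_51_P364274 was assigned to 1 RefSeq transcript of Mitf and the other 2 probes to another.

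Best1 encodes bestrophin-1, an anion channel of the basolateral membrane of the pigment epithelium that takes no part in melanin chemistry. It read 6.88, 6.49, 6.77 and 6.72 on arrays labelled Mrp4-null and 6.60, 6.68, 6.32 and 6.44 on wild-type arrays. With quantile normalization the ranges overlapped, while after a shift to the 75th percentile they did not (exact permutation test, p = 0.0286). That p is the smallest possible here and is reached by every probe whose genotypes separate. The share of all probes that separate after this shift was not counted. In the quantile-normalized values, array 2 labelled Mrp4-null, which was highest for Tyr, Tyrp1, Dct and Mlana, was the lowest of its label here. Between the genotypes Best1 differed by a log2 fold change of 0.21 (95% interval -0.06 to 0.47; limma adjusted p = 0.930; exact permutation test, p = 0.143).

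**Figure D2:**
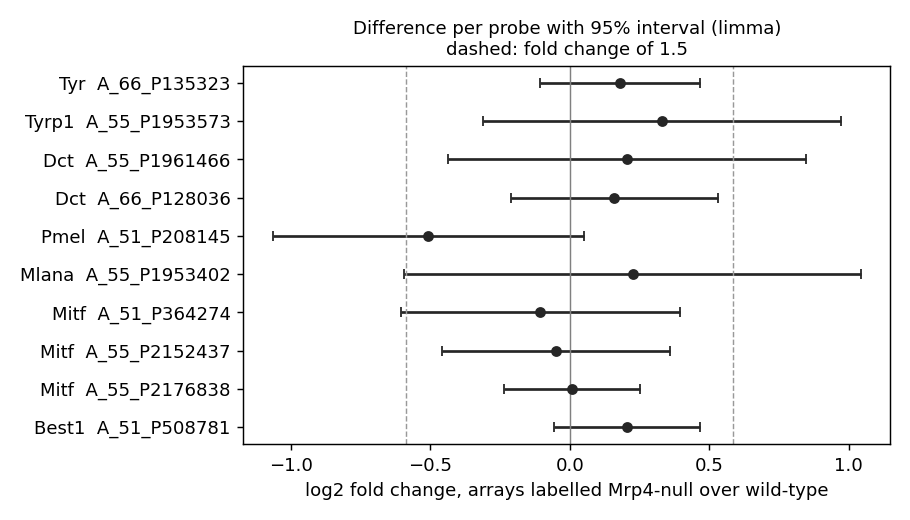
Log2 fold change of each retained melanin pathway probe, arrays labelled Mrp4-null over wild-type, with limma's 95% interval (horizontal bars) and a fold change of 1.5 in either direction (dashed lines). Every interval includes 0, and for 5 of the 10 probes it lies within the dashed lines.

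The intervals set what these arrays could show. For Tyr, A_66_P128036 of Dct, both brighter Mitf probes and Best1, the 95% interval lay within a fold change of 1.5 in either direction. For Tyrp1, A_55_P1961466 of Dct, Pmel and Mlana it reached beyond 1.5-fold, as it did at its lower end (-0.60) for A_51_P364274 of Mitf, so a change of that size could not be told from none with 4 arrays per genotype. The first 4 of these probes had a within-genotype SD of 0.40 to 0.60 on the log2 scale, which placed Dct at the 97.0th, Mlana at the 96.6th, Tyrp1 at the 93.1st and Pmel at the 81.0th percentile among retained probes of like signal. Tyr, at the 10.4th percentile, and Best1, at the 27.7th, were less variable than most such probes.

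By the brightest probe of each gene, Tyrp1, Dct and Mlana rose and fell together across the 8 arrays. For Dct this rests on A_55_P1961466, since A_66_P128036 did not follow it closely. Of the 21 pairs of the 7 members, 15 had a positive Pearson's r, and for 3 pairs the exact permutation p, adjusted by the Benjamini-Hochberg method over the 21 pairs, was under 0.05. Tyrp1 and Mlana had r = 0.910 (exact permutation p = 0.000868, adjusted 0.00911; Spearman's rho 0.929, exact p = 0.00223). For Tyrp1 and Dct r was 0.888 (exact permutation p = 0.000446, adjusted 0.00911; rho 0.952, exact p = 0.00114). For Dct and Mlana r was 0.849 (exact permutation p = 0.00322, adjusted 0.0226; rho 0.952, exact p = 0.00114). All 3 remained high without the 2 arrays farthest from the median of the first gene (0.842, 0.879 and 0.821), and after each genotype's mean was removed (0.917, 0.886 and 0.842). Each array contributes to every pair, so the 3 values are not independent of each other.

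Tyr followed the same arrays less closely. Its r with Tyrp1 was 0.716 (exact permutation p = 0.0446, adjusted 0.234; rho 0.524, exact p = 0.197), and it was -0.032 without the 2 farthest arrays, so the relation rested on those arrays. Pmel had r = 0.609 with Mlana over all arrays (exact permutation p = 0.105, adjusted 0.368) and 0.932 after the genotype means were removed, a value without a test. Mitf and Best1 had r between -0.385 and 0.329 with the 3 genes, and no adjusted exact permutation p was under 0.05. After the genotype means were removed, these values lay between -0.401 and 0.234. Among arrays labelled Mrp4-null it was lowest on array 2, where they were highest, and among wild-type arrays it was, as they were, higher on arrays 1 and 2 than on arrays 3 and 4. Whether the genotypes differ in this was not tested.

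**Figure D3:**
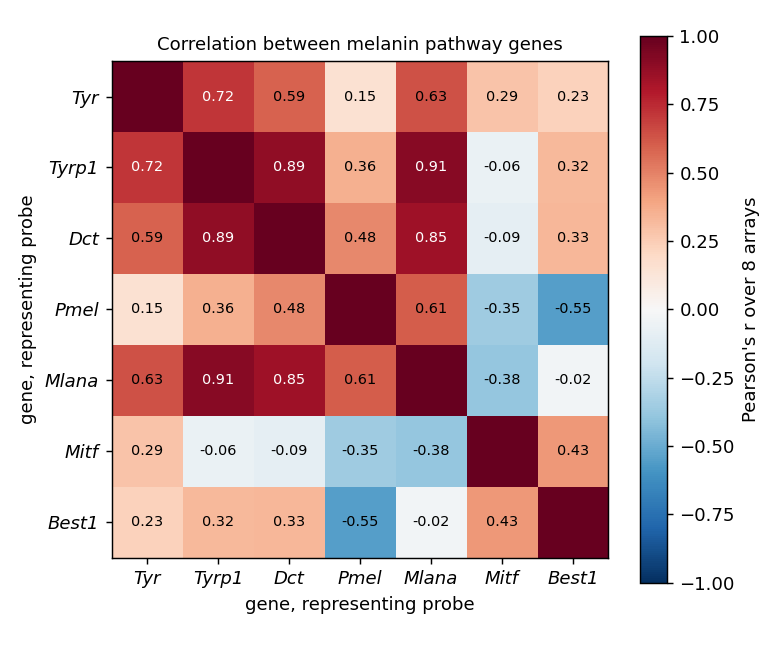
Pearson's r over the 8 arrays between the normalized log2 signals of the 7 melanin pathway genes, each by its brightest retained probe. The block of Tyrp1, Dct and Mlana holds values of 0.849 to 0.910, while the rows of Mitf and Best1 hold values near 0 or below as well as small positive ones.

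The mean of the 7 members was 6.89, 7.41, 6.84 and 7.07 on arrays labelled Mrp4-null and 7.17, 7.22, 6.61 and 6.83 on wild-type arrays. It was highest on array 2 labelled Mrp4-null and lowest on wild-type array 3, and these were the arrays with the lowest 75th percentiles of signal before normalization. A low percentile therefore went with both ends of the range. Tyrp1 (r = 0.950), Dct (0.946) and Mlana (0.941), which are part of that mean, followed it most closely by their brightest probes. The other Dct probe, A_66_P128036, had r = 0.124 to the same mean, and Mitf had -0.098. Among named genes outside the pathway, those with the highest r to this mean over 8 arrays were Snw1 (0.934), 2810006K23Rik (0.930), Rbbp5 (0.904), Tbata (0.898), Tmem181a (0.898), Izumo1r (0.897), Coq7 (0.896), Zfp85 (0.896), Nemp1 (0.890) and Zkscan1 (0.888). All had log2 fold changes between -0.02 and 0.16. These genes were the top of a search through all named genes over 8 arrays, and their values are a description only.

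Of the 30 retained markers of the pigment epithelium, the layer that lies against the photoreceptors, 5 (16.7%) had r above 0.5 with this mean, as did 3.90% of 16081 retained genes outside the members. The median r was 0.04 over the 30 markers and -0.02 over all these genes, and 14 of the markers had a negative r, down to -0.503. The 5 were Kcnj13 (0.657), Ptgds (0.646), Enpp2 (0.542), Rpe65 (0.531) and Ttr (0.508). Rpe65, the visual cycle isomerase, read 9.0, 8.50, 8.20 and 8.79 on arrays labelled Mrp4-null and 8.65, 8.78, 8.03 and 8.15 on wild-type arrays. Kcnj13, a potassium channel of the same cells, read 8.28, 8.11, 8.04 and 8.30 against 8.36, 8.28, 7.56 and 7.54. Both were low on wild-type arrays 3 and 4, as Tyrp1, Dct and Mlana were. Both had been picked by their r to a mean that includes these 3 genes, so this likeness is a description only. On array 2 labelled Mrp4-null, the array highest for these 3 genes, Rpe65 by its brightest probe and Kcnj13 lay within the range of the other arrays of that label. A dimmer Rpe65 probe, A_51_P404800, read 5.56, 4.13, 4.42 and 5.37 on arrays labelled Mrp4-null and 4.93, 5.55, 3.55 and 4.68 on wild-type arrays. That probe was lowest of its label on array 2 and had r = 0.330 to the members' mean.

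The mean log2 level of the pigment epithelium list ranged from 9.33 to 9.60 on arrays labelled Mrp4-null and from 9.28 to 9.50 on wild-type arrays, with Lrat the 1 marker on the array not retained. List means do not measure the amount of a tissue, because the arrays do not show which cells gave each signal. The choroid and sclera list ranged from 7.89 to 8.17 and from 7.77 to 7.95 and was highest on array 2 labelled Mrp4-null, with 3 of 16 genes, Ogn, Fmod and Fbln1, above r = 0.5 to the members' mean. The ciliary body and iris list (8.45 to 8.57 and 8.31 to 8.47) and the lens list (6.33 to 8.39 and 7.37 to 9.49) each had 1 such gene, and the neural retina list (14.83 to 14.91 and 14.80 to 14.93) had 0. The lens list was lowest on array 2 labelled Mrp4-null and had a median log2 fold change of -1.38. Of the genes of smallest p in these lists none was called by limma. In the choroid and sclera list they were Fbln1, a matrix protein (log2 fold change 1.30, limma adjusted p = 0.244), Col1a2 (0.66) and Mgp (0.53). Optc, the vitreous protein opticin (1.53, limma adjusted p = 0.158), Aqp4 (-0.39) and Myoc (-0.48, well above background on only 3 of the 4 arrays labelled Mrp4-null) led the ciliary body and iris list. Crygc, a lens crystallin (-1.53 by 1 probe, limma adjusted p = 0.173, and -0.54 by its brightest), Bfsp2 (-1.38) and Bfsp1 (-1.53) led the lens list. For the neural retina they included cone arrestin Arr3 (0.34, limma adjusted p = 0.192) and Grm6 (0.24). The part of these tissues in the members' levels was not tested.

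**Figure D4:**
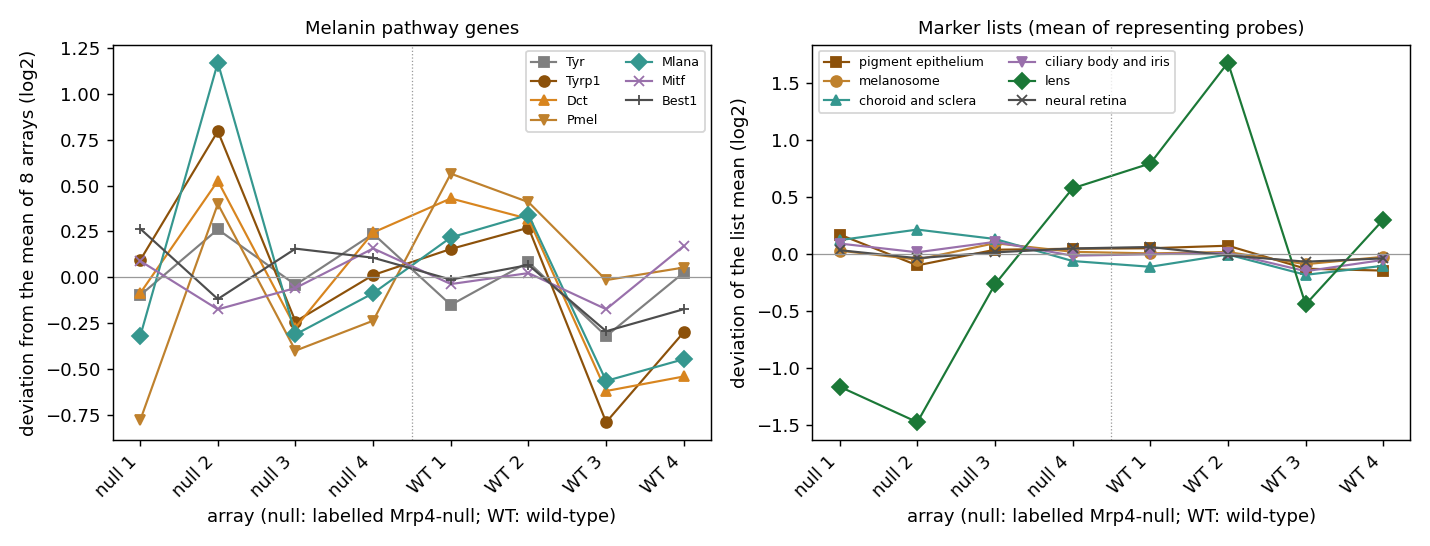
Deviation of each melanin pathway gene (left) and of the mean of each marker list (right) from its mean over the 8 arrays, in log2 units, by array (null, labelled Mrp4-null; WT, wild-type). Tyrp1, Dct and Mlana peak on null 2 and are low on WT 3 and WT 4, while the pigment epithelium list is below its mean on all 3.

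The other genes of the melanosome, which build the organelle, load it and move it through the cell, were not called between the genotypes either. All 39 were on the array and 37 were retained, of which 0 were called, 1 had an unadjusted limma p under 0.05 by its brightest probe, and 23 had a higher and 14 a lower mean on arrays labelled Mrp4-null. The median log2 fold change was 0.02, and Gpr143 and Mlph were not retained. Slc7a11, the cystine transporter that supplies pheomelanin synthesis, read 5.62, 5.73, 6.69 and 5.81 on arrays labelled Mrp4-null, so array 3 stood well above the others. It read 5.06 to 5.58 on wild-type arrays. Its groups did not overlap, but the log2 fold change of 0.57 was not called (standard error 0.23, limma adjusted p = 0.707). Bace2, a protease that processes Pmel, had a log2 fold change of 0.43 (limma adjusted p = 0.778). Lyst, the lysosomal trafficking regulator, had -0.25 by a dim probe whose arrays did not overlap (limma adjusted p = 0.481) and 0.08 by its brightest probe. None of the 37 genes had r above 0.5 with the mean of the members.

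None of the genes that specify melanocytes or signal to them was called. Of 28 genes 23 were retained, 9 with a higher and 14 with a lower mean on arrays labelled Mrp4-null, with a median log2 fold change of -0.03 and, by the brightest probe of each gene, 1 unadjusted limma p under 0.05. That gene was S100b, which in retina is also a marker of glia. It read 10.07, 10.23, 9.90 and 10.12 on arrays labelled Mrp4-null and 10.55, 10.40, 10.52 and 10.69 on wild-type arrays. The groups did not overlap (log2 fold change -0.46, standard error 0.10, limma adjusted p = 0.139). Trpm1, a cation channel first known from melanocytes and also used by ON bipolar cells of the retina, had 6 retained probes, each with a higher mean on arrays labelled Mrp4-null. Their log2 fold changes were 0.15 to 0.38, and the smallest limma adjusted p was 0.302. Limma also gave an unadjusted p under 0.05 to 2 of these probes and to a dimmer probe of Ednrb. Ednrb, the endothelin receptor of melanoblasts, had -0.30 by 1 probe (limma adjusted p = 0.724) and -0.40 by its brightest. Sox10 and Kit, a transcription factor and a receptor of the lineage, had -0.31 and -0.06, while Edn3, Pax3, Tfec and Snai2 were not retained.

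In the pigment epithelium list, 0 of 30 retained genes were called, 20 had a higher and 10 a lower mean on arrays labelled Mrp4-null, and the median log2 fold change was 0.09. Unadjusted limma p was under 0.05 for 5 of them, 3 higher and 2 lower, where 6.60% of all 16093 genes had such a p. By the brightest probe, the groups did not overlap in 2 of the 30, in 3 of the 37 melanosome genes and in 1 of the 23 melanocyte lineage genes, against 5.44% of all genes. Wfdc1, a secreted protease inhibitor family member, was nearest to a call. Its dimmer probe read 7.40, 7.48, 7.35 and 7.05 on arrays labelled Mrp4-null and 6.79, 6.87, 6.62 and 6.79 on wild-type arrays (log2 fold change 0.56, standard error 0.11, limma adjusted p = 0.0976). Its brighter probe had a log2 fold change of 0.38. Serpinf1, the gene of pigment epithelium-derived factor, had 0.70 by a dim probe that was well above background on 2 of the 4 wild-type arrays (limma adjusted p = 0.308). That probe was kept only through the arrays labelled Mrp4-null, so 0.70 is not a fully measured fold change. The gene had 0.06 and 0.02 by 2 brighter probes. Slco1c1, a thyroid hormone transporter, had -0.38 (limma adjusted p = 0.398), with no overlap between the groups.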

How the data were processed

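Retinal RNA was labelled with Cy3 and hybridized to Agilent mouse 8x60K arrays. The authors deposited scanner files with a processed intensity per spot, from which Agilent Feature Extraction 11.0.1.1 had removed background and spatial trend. They also deposited a table of linear intensity values, which equalled the mean processed signal of all 56605 probes on each array within 0.1% and was neither centred nor normalized between arrays (medians 60.2 to 86.3).

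From 62976 spots per array, controls and spots marked as outliers were left out, and log2 processed signals of the same probe were averaged. Probes were kept (37085) if all measured arrays of at least 1 genotype were well above background, with at least 3 measured there and 2 in the other. These were quantile normalized, as in the study's methods. Probes were named through their accession and the RefSeq gene table (32994 probes, 58.3%). Because the array was designed on an older build, only chromosomes and gene order were taken from that table.

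Genotypes were compared with limma 3.58.1 in R 4.3.3 (lmFit, eBayes, genotype alone), with Benjamini-Hochberg adjustment over all retained probes, and per probe with exact two-sided permutation tests over 70 groupings. Correlations used all 40320 orderings. The local pooled error test was written for this work. The procedure was tested on simulated data. Alternatives were: scaling by the 75th percentile, normexp background correction with an offset of 50 (on the median signal, in place of the mean signal first planned), other filters on dim probes, outlier spots kept, the deposited table, a robust fit with an intensity trend, the local pooled error test, a block for the sample number, other thresholds, the brightest probe per gene, and each array left out.

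The members and lists were chosen with earlier results of these data known. Named were every member probe, Abcc4, the genes next to Dct and Abcc4, called genes and the 3 of smallest limma p in each list, and the 10 genes most correlated with the members' mean. In the neural retina list 1 such gene is not reported here. Rpe65, Kcnj13, Ptgds, Enpp2, Ttr, Ogn, Fmod, Sox10, Kit and Ddx3y were named after their values were seen.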

Additional observations from a re-analysis of the deposited data

Results flagged for a closer look

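In 38 groups of 4 arrays screened for a sample far from the others, 3 were picked out by the gap to the nearest sample divided by the group's range (Dixon's 95% critical value for 4 samples). Chance picks out about 1 in 20 groups. Mlana read 6.84 on array 2 labelled Mrp4-null, far above the other 3 arrays of that label (gap over range 0.842). The Mitf probe A_55_P2152437 read 8.57 on array 3 labelled Mrp4-null, below the other 3 (0.856). The 75th percentile of the signal before normalization was 678 on array 2 labelled Mrp4-null, below the other 3 (0.846), so the array that was highest for Mlana was also the dimmest of its label. Whether these facts are related was not tested.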

How the results depend on the processing

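No melanin pathway, melanosome or melanocyte lineage gene was called under any of the 21 alternatives, in which 71 to 699 probes of the array were called. Keeping only the brightest probe per gene could not add a call. Each fold change of Pmel, Tyr, Best1 and A_66_P128036 of Dct kept its sign where it could be computed (Pmel -0.82 to -0.16, Tyr 0.044 to 0.27, Best1 0.096 to 0.28, A_66_P128036 0.051 to 0.27). Alternatives that changed only the test, the fit, the thresholds or the choice of probe left the fold changes as they were, so no sign could turn there. Tyr was lowest with normexp (0.044) and 0.10 without wild-type array 3, Best1 was lowest with normexp (0.096), and A_66_P128036 was lowest without wild-type array 4 (0.051). In the pigment epithelium list 1 gene, Serpinf1, passed the fold change of 1.5 alone. That was by a dim probe kept through the arrays labelled Mrp4-null and well above background on only 2 of the 4 wild-type arrays. Its brighter probes had log2 fold changes of 0.06 and 0.02. Between 0 and 1 gene of the list was called when each array was left out (Wfdc1 without array 4 labelled Mrp4-null). With the 75th percentile shift, 1 member probe, that of Best1, had an exact permutation p under 0.05, and the share of all probes that did so was not counted. Leaving out each array moved the median of the members between 0.067 and 0.26, and the log2 fold change of Tyrp1 between 0.12 and 0.47, of Dct A_55_P1961466 between 0.033 and 0.38, of Pmel between -0.73 and -0.33, of Mlana between -0.13 and 0.38 (-0.13 without array 2 labelled Mrp4-null), of Mitf A_55_P2176838 between -0.049 and 0.067, of A_51_P364274 between -0.30 and 0.035 and of A_55_P2152437 between -0.20 and 0.061. For A_55_P2176838 the sign turned without arrays 1 (-0.021) and 4 (-0.043) labelled Mrp4-null and wild-type arrays 1 (-0.0027) and 3 (-0.049). For A_51_P364274 it turned without array 3 labelled Mrp4-null (0.023) and wild-type array 4 (0.035), and for A_55_P2152437 without the same arrays (0.059 and 0.061). Without both arrays of lowest 75th percentile, an alternative chosen after seeing the data, the log2 fold change was -0.28 for Mlana, -0.089 for Tyrp1 and -0.11 for Dct A_55_P1961466, and the median of the members was -0.089. The sample numbers did not pair the arrays (correlations of deviations -0.290, -0.685, 0.034 and 0.409, and no array matched its own number best). With the sample number as a replicate block, 0 members and 71 probes in all were called, against 202 without it. The cause of these shifts was not tested. Signal over background limited Slc45a2, Oca2 and 1 Tyr probe.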
